A study of Mus musculus with 32 samples.

Results

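The 10 genes described here, Cst7, Clec7a, Itgax, Spp1, Gpnmb, Axl, Csf1, St14, Lag3 and Samsn1, are among those known to be switched on in microglia that gather at amyloid plaques. They were taken by symbol from the 22337 genes of the expression tables because they were high in the hippocampus (HPC) of 5xFAD mice and low in that of wild-type (WT) mice, so that difference is given as a description without a test. The 32 libraries came from male mice on a C57BL/6J background, aged 6 months, with 1 mouse per library; whether libraries of different tissues came from the same mice is not given in the sources used here. WT mice were littermates that did not carry the transgenes. 5xFAD mice carry human transgenes with familial Alzheimer's disease (AD) mutations, driven in neurons by Thy1 regulatory sequence, and thus model amyloid deposition from neuronal overexpression. The group labelled 5xFAD+L, written here as 5xFAD + light, received repeated sessions of near-infrared light through the skull, while control mice had the same anesthesia and scalp shaving under room lighting. Every animal of the light group carried the transgenes, and no light-treated WT mice were analysed here. HPC was sampled in 4 WT, 4 5xFAD and 4 5xFAD + light mice, meninges in 4, 3 and 3, and sorted meningeal lymphatic endothelial cells (mLECs) in 4, 3 and 3.

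Microglia, the resident macrophages of the brain, sense amyloid through surface receptors such as Trem2 and its adaptor Tyrobp. Around plaques they move from a homeostatic state, marked by P2ry12, Tmem119 and Cx3cr1, to a plaque-associated state in which genes for lysosomal enzymes, lipid handling and phagocytic receptors are raised. Outside the brain, macrophages, dendritic cells, osteoclasts and lymphocytes use many of the same genes, and the meninges hold such cells in the dura and next to bone.

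The 10 genes cover several roles. Spp1 (osteopontin, a secreted ligand of integrins and CD44) and Csf1 (the growth factor that microglia need, acting through Csf1r) encode ligands. Clec7a (Dectin-1, a receptor for fungal beta-glucan that signals through Syk), Itgax (CD11c, an integrin chain that pairs with Itgb2), Axl (a receptor tyrosine kinase that recognises dying cells through Gas6), Gpnmb (a transmembrane glycoprotein of lysosome-rich macrophages) and Lag3 (a receptor for MHC class II) act at the cell surface or in vesicles. Cst7 (cystatin F) inhibits cathepsins inside lysosomes, St14 (matriptase) is a membrane-bound serine protease, and Samsn1 is an adaptor protein of hematopoietic cells.

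The sequences before the start sites are shown for the 4 genes whose upstream window held one of the motifs searched, since Cst7 was the member with the largest difference and these genes share a cell type. Windows of 250 bases ending at the base before the RefSeq start were read from RefSeq (GRCm38.p6) for the 8 members in the promoter table; St14 and Lag3 are not in that table. AGGAAGT, a core of sites bound by the myeloid factor PU.1, TGANTCA, the AP-1 site, and the E-boxes CACGTG and CATGTG, of the kind bound by MITF and TFE factors, were searched on both strands. AGGAAGT was found in 3 of the 8 members (Cst7, Spp1 and Samsn1) and in 7.69% of 32851 windows of the same length over all genes. TGANTCA was found in 1 member, Itgax, and in 6.75% of all windows. Neither E-box was found in any of the 8, against 6.02% of all windows for CACGTG and 12.3% for CATGTG. The Cst7 window is chr2:150570165-150570414 on the plus strand, that of Spp1 chr5:104434861-104435110 on the plus strand, that of Samsn1 chr16:75909267-75909516 on the minus strand and that of Itgax chr7:128129300-128129549 on the plus strand. They are written 5′ to 3′ on the strand of the gene, with the matched letters in capitals; a match describes the letters and is not evidence of binding.
Cst7: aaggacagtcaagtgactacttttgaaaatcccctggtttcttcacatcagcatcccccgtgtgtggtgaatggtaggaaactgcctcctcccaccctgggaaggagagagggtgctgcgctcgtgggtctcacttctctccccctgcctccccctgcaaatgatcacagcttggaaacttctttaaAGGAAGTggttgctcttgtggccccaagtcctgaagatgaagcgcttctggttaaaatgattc
Spp1: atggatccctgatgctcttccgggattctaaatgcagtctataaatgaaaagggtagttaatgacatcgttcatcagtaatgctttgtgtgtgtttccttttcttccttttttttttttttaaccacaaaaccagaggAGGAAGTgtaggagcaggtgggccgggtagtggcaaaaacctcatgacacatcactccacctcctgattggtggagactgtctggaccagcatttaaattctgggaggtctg
Samsn1: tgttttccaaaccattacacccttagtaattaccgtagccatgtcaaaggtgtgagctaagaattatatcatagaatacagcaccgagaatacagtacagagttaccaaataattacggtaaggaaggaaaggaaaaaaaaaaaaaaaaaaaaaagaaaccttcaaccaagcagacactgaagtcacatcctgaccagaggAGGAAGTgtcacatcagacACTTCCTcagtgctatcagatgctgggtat
Itgax: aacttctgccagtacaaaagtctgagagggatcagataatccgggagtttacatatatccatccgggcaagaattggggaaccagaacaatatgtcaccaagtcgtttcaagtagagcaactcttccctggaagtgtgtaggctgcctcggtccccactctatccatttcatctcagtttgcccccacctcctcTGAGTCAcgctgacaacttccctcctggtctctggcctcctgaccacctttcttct
The match began 63 bases before the start in Cst7 and 112 before it in Spp1. Samsn1 held 2 matches, 49 and 30 bases before the start, the second on the opposite strand, and the AP-1 letters of Itgax began at 56.

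The libraries held from 13952825 to 23856476 estimated counts in HPC, 6601143 to 14708202 in meninges and 14231415 to 24207326 in mLECs, and from 5998 to 9020 genes were detected in mLEC libraries against 16371 or more in the tissues. The spread between mice of a group, as the biological coefficient of variation of the edgeR fit, was 0.198 in HPC, 0.350 in meninges and 1.89 in mLECs. All 10 members passed the low-value filter in HPC (1 FPKM reached in 3 or more samples), 9 passed in meninges and 4 in mLECs. In HPC, 5 of the 10 (Cst7, Clec7a, Itgax, St14 and Samsn1) reached that level in 0 of 4 WT mice and so passed through the 5xFAD groups alone. The microglial marker P2ry12 was at 40.8 to 75.9 FPKM over the 12 HPC libraries and had a median of 2.79 in meninges, while Tmem119 was at 20.7 to 53.9 in HPC and 26.9 to 65.7 in meninges.

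The first comparison was between 5xFAD and WT HPC, the difference the genes were chosen on. Levels are given as FPKM (mapped fragments per unit of transcript length and of library depth). Cst7 was at 0.38, 0.50, 0.61 and 0.78 FPKM in the 4 WT mice and at 271, 140, 125 and 150 in the 4 5xFAD mice. Cst7, near the detection limit in WT HPC with 9 to 15 counts per library, was thus the most abundant member in 5xFAD HPC, at 172 ± 66.9 FPKM (SD, n = 4), and 1 of the 4 mice stood above the others. Clec7a was at 0.13, 0.07, 0.09 and 0.08 FPKM in WT and 23.8, 13.3, 13.02 and 18.4 in 5xFAD. Itgax was at 0.01, 0.00, 0.08 and 0.05 FPKM in WT and 2.97, 1.52, 2.46 and 3.49 in 5xFAD. Both receptors were thus close to absent in WT HPC, and their groups did not overlap. St14 was at 0.10 to 0.25 FPKM in WT and 1.86 to 3.31 in 5xFAD, and Samsn1 at 0.78 to 0.99 in WT and 3.91 to 7.74 in 5xFAD.

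The remaining members were already measurable in WT HPC. Spp1 was at 11.5, 7.81, 6.89 and 4.84 FPKM in WT and 106, 41.8, 31.9 and 24.9 in 5xFAD. Lag3 was at 5.67, 5.73, 5.60 and 4.98 FPKM in WT and at 33.0, 15.7, 18.1 and 32.3 in 5xFAD. Axl, at 11.6 to 14.7 FPKM in WT and 18.6 to 27.0 in 5xFAD, and Csf1, at 3.45 to 4.55 and 7.49 to 9.27, had the smallest differences. Gpnmb was at 1.47, 2.21, 1.40 and 1.95 FPKM in WT and at 15.8, 6.77, 1.11 and 9.25 in 5xFAD. Gpnmb was the member whose groups overlapped, since the third 5xFAD mouse was below every WT mouse while 9 of the 10 members in that mouse were above every WT mouse. As log2 fold changes of 5xFAD over WT from the edgeR fit, the differences were 8.27 for Cst7, 6.95 for Clec7a, 6.21 for Itgax, 3.72 for St14, 2.74 for Spp1, 2.71 for Samsn1, 2.27 for Gpnmb, 2.19 for Lag3, 0.91 for Csf1 and 0.81 for Axl, with standard errors from 0.15 to 0.58. The median was 2.73, beside 0.01 over all 12981 genes tested. In this comparison 8.75% of all genes were higher in 5xFAD without overlap and 6.48% were called higher; the 9 of 10 members without overlap follow from the choice of genes.

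**Figure D1:**
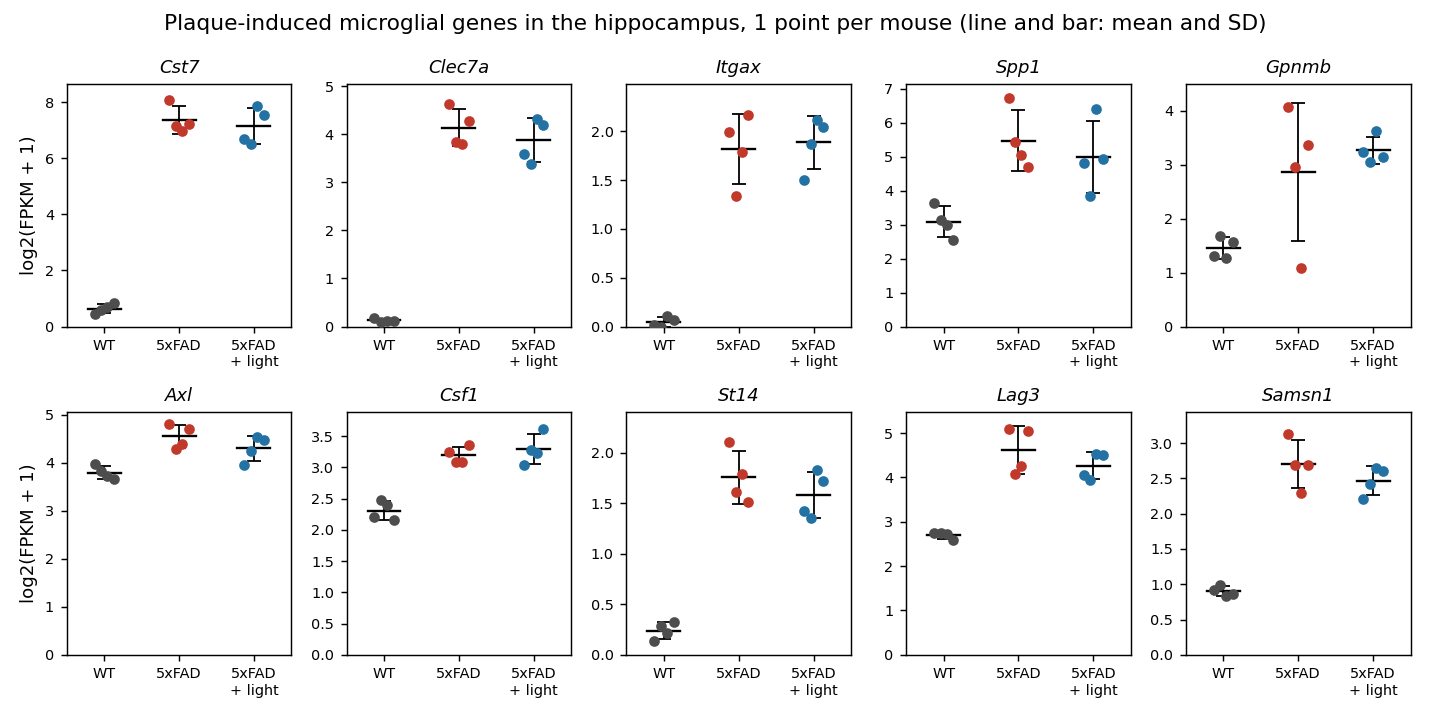
Level of each of the 10 genes in HPC, as log2(FPKM + 1), for 4 WT, 4 5xFAD and 4 5xFAD + light mice; points are mice, lines and bars the mean and SD, and each panel has its own scale from 0. The 2 transgenic groups overlapped in all 10 panels, and the lone low 5xFAD point of Gpnmb lies below the 4 WT points.

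Genes outside the 10 were tested in the same comparison. Of 40 other genes known from plaque-associated microglia, 39 were measured and 32 rose in 5xFAD HPC and 0 fell, with a median log2 fold change of 2.03. The chemokines Ccl3, Ccl4 and Ccl6 rose by log2 fold changes of 5.99, 4.58 and 3.87, and the metabolite receptor Gpr84 and the lysozyme gene Lyz2 by 3.81 and 3.56 (edgeR, adjusted p from 1.2e-05 to 2.9e-04). Trem2, the lipid and amyloid receptor, went from 23.8 FPKM in WT to 195 ± 57.8 (SD, n = 4) in 5xFAD. Of 13 homeostatic microglial genes, 13 rose and 0 fell, with a median of 1.29; Fcrls rose by 2.14 and P2ry12, the ADP receptor of resting microglia, by 0.71. The members of the 2 lists were chosen with results of these data known, so the counts and p-values are descriptions. They are read beside the 6.48% of all genes called higher. In bulk tissue, more cells of a type and more RNA per cell cannot be told apart.

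Ligands, receptors and partners of the 10 were followed as a list of 36, also chosen with results of these data known. Of these, 29 were measured in HPC, 15 rose and 0 fell (median 1.15), beside 6.48% of all genes called higher. For Cst7, the cathepsin genes that cystatins act on rose, with log2 fold changes of 2.18 for Ctsh, 1.57 for Ctsc and 1.25 for Ctsl. For Itgax, its partner chain Itgb2 rose by 2.17, from 2.66 to 12.2 FPKM. For Clec7a, Syk rose by 1.15 and Plcg2 by 1.21. For Csf1, its receptor Csf1r rose by 1.20, while Il34, the other ligand of that receptor, was at 34.5 FPKM in WT and 31.2 in 5xFAD and was not called. For Spp1, Cd44 rose by 2.78 and Itgb5 by 1.59, but Cd44 ranged from 0.72 to 23.3 FPKM over the 4 5xFAD mice, and the integrin genes Itgav, Itgb1 and Itga4 were not called. For Axl, its ligand Gas6 (34.6 FPKM in WT and 41.6 in 5xFAD) and the related receptors Mertk (7.43 and 8.85) and Tyro3 (14.4 and 12.2) were not called, while Pros1, which encodes protein S, a ligand of Mertk and Tyro3, rose by 1.15. For St14, its inhibitor Spint1 rose by 1.29 and Spint2 was not called, and for Lag3, the MHC class II genes Cd74 and H2-Ab1 rose by 3.48 and 3.40, while H2-Aa (3.10) and H2-Eb1 (2.17) were not called. The factors Mitf, Tfe3 and Tfeb, which act on Gpnmb in other macrophages, had log2 fold changes of 0.04, 0.08 and 0.38 and were not called.

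**Figure D2:**
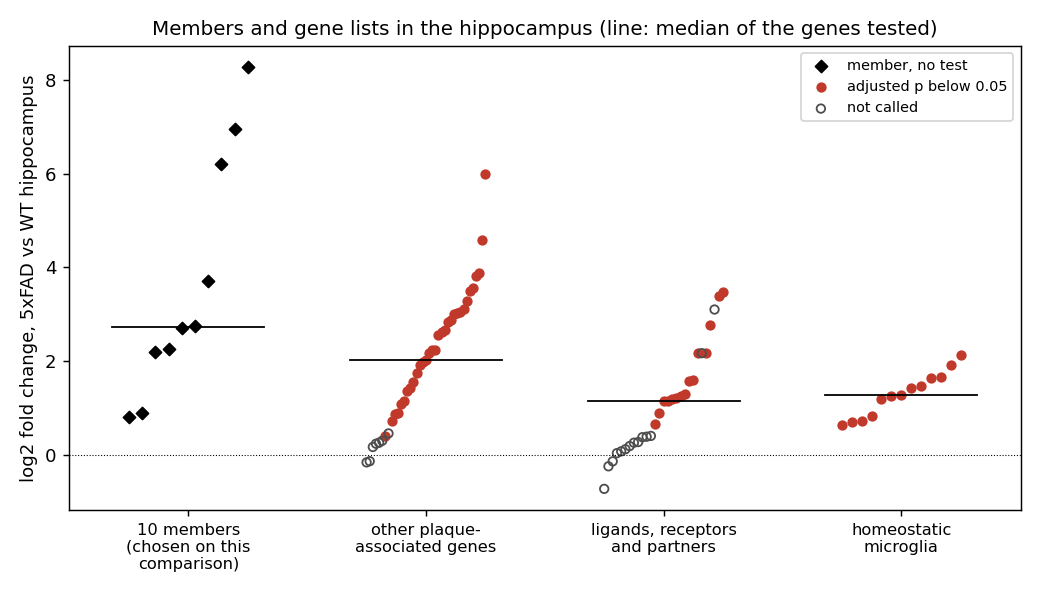
Log2 fold change of 5xFAD over WT HPC for the 10 members (diamonds, no test) and for the genes of 3 lists, filled where called and open where not; lines are medians. All 13 homeostatic genes and 32 of 39 other plaque-associated genes were called higher, beside 6.48% of all genes. The lists were chosen with results of these data known.

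Set against microglial content, the summed FPKM of the 10 members was 28.8 to 38.5 in WT, 226 to 499 in 5xFAD and 171 to 410 in 5xFAD + light HPC. The summed FPKM of the 13 homeostatic genes was 295 to 338, 701 to 996 and 580 to 847. Per 100 FPKM of the homeostatic genes, the members were thus at 9.40 to 11.98 in WT, 31.8 to 50.1 in 5xFAD and 28.1 to 48.5 in 5xFAD + light mice, so that the transgenic groups overlapped on this scale too. Member by member the picture was uneven. Cst7 was at 0.18 ± 0.06 per 100 in WT and 20.4 ± 4.65 in 5xFAD (SD, n = 4 each), while Axl was at 4.13 ± 0.34 in WT and 2.76 ± 0.13 in 5xFAD, and Csf1 at 1.28 ± 0.22 and 1.01 ± 0.10. Relative to these microglial genes, Axl was therefore lower in each 5xFAD mouse than in each WT mouse, although its level in the tissue was higher.

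**Figure D3:**
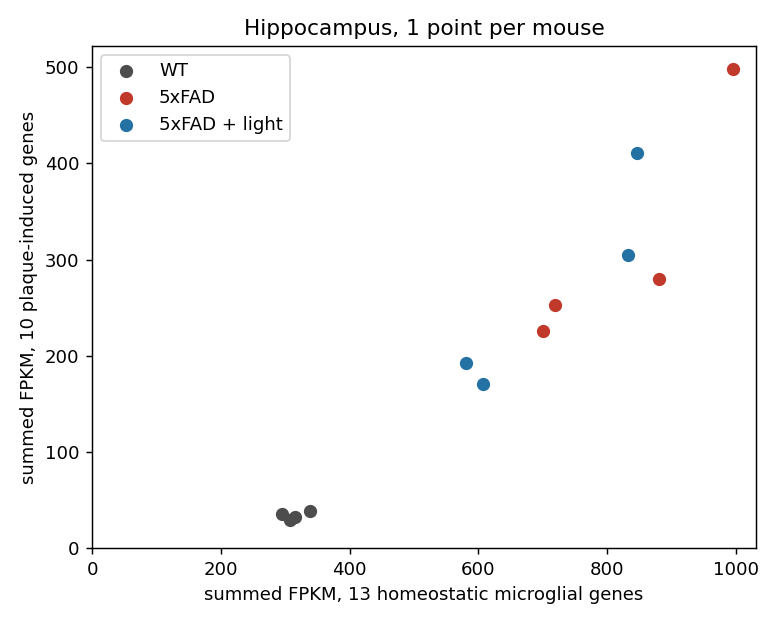
Summed FPKM of the 10 plaque-induced genes against that of 13 homeostatic microglial genes, 1 point per mouse, both axes from 0. WT mice lie at 28.8 to 38.5 on the vertical axis, and the 8 transgenic mice spread from 171 to 499 with the 2 groups intermixed.

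The second comparison asked whether light changed these genes in 5xFAD HPC, where the study examined plaque and microglial staining. None of the 10 members was called, 0 of 10 had an unadjusted p below 0.05 in the edgeR test, and the 2 groups overlapped for each of the 10. Over all genes, 0.455% were called in this comparison, 18.3% had an unadjusted p below 0.05 and 7.63% did not overlap. The share called was unstable: 35 genes were called higher and 24 lower, against 0 and 0 without the light-treated mouse numbered 2 or 4, 183 and 86 without the untreated 5xFAD mouse numbered 2, and 356 and 285 in DESeq2. The same 4 untreated 5xFAD mice had entered the choice of the genes, which favours genes that were high in them.

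Cst7 was at 102, 91.0, 233 and 185 FPKM in the 4 light-treated mice, with a mean of 153 ± 67.8 (SD, n = 4) beside 172 ± 66.9 without light. The highest of the 8 mice was untreated and the lowest of them were light-treated, with the others intermixed. Its log2 fold change, light over no light, was -0.17 with a 95% interval from -0.83 to 0.50. Clec7a, at 11.1, 9.41, 19.0 and 17.4 FPKM under light, differed by -0.18 (-0.66 to 0.29), and Itgax, at 1.84, 2.66, 3.34 and 3.13, by 0.01 (-0.71 to 0.73). Both receptors thus stayed far above the WT range in each light-treated mouse. Spp1 was at 26.9, 13.4, 83.6 and 29.7 FPKM under light, and its difference of -0.42 (-1.56 to 0.73) had the widest interval of the 10. Gpnmb was at 8.36, 7.30, 11.4 and 7.81 FPKM, a narrower range than without light, and differed by 0.09 (-0.95 to 1.13). Without the third 5xFAD mouse, the log2 fold change of Gpnmb was -0.27.

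Lag3 had the smallest adjusted p, 0.355 (edgeR). It was at 15.7, 14.3, 22.1 and 21.8 FPKM under light, and the difference was -0.42 (-0.93 to 0.08). Axl was at 14.5 to 22.2 FPKM and differed by -0.24 (-0.57 to 0.09), Samsn1 was at 3.61 to 5.27 and differed by -0.31 (-0.76 to 0.15), and St14 was at 1.56 to 2.56 and differed by -0.25 (-0.82 to 0.32). Csf1, at 7.21 to 11.3 FPKM, differed by 0.14 (-0.17 to 0.45). In sum 7 of the 10 estimates were below 0, with a median of -0.21, beside 52.5% of all genes and a median of -0.02. The choice of genes favours estimates below 0 and the members varied together, so the count is a description and not a test. The intervals included decreases of up to 0.93 on the log2 scale for Lag3, and those of Csf1 and Axl lay within 0.57 in either direction.

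Against WT mice, which the choice of genes also used, light-treated HPC had log2 fold changes of 8.11 for Cst7, 6.77 for Clec7a, 6.22 for Itgax, 3.47 for St14, 2.41 for Samsn1, 2.36 for Gpnmb, 2.33 for Spp1, 1.76 for Lag3, 1.04 for Csf1 and 0.57 for Axl. These are descriptions, and the WT mice are those of the first comparison. Axl was the member that overlapped with WT, through 1 light-treated mouse at 14.5 FPKM beside a WT maximum of 14.7, and the other 9 did not overlap, where 7.33% of all genes were higher without overlap and 3.05% were called higher.

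Of the other plaque-associated genes, 0 of 39 were called between light-treated and untreated 5xFAD HPC in edgeR, 3 had an unadjusted p below 0.05 and the median was -0.21. The homeostatic genes had 0 of 13 called, 0 with an unadjusted p below 0.05 and a median of -0.16. The partners had 0 of 29 called and a median of -0.26, and 13 of them had an unadjusted p below 0.05, beside the 18.3% of all genes. Trem2 was at 168 ± 66.2 FPKM under light and 195 ± 57.8 without (SD, n = 4 each), and Apoe, the lipid carrier of plaque-associated microglia, at 4964 ± 690 and 5838 ± 786. Under light, against WT, 27 of 39 other plaque-associated genes and 11 of 13 homeostatic genes rose and 0 fell. Of all genes, 3.05% were called higher. Ccl3 had a log2 fold change of 6.68 and Trem2 of 2.84. Of the partners, 12 rose and 1, Tyro3, fell by 0.68; without the WT mouse numbered 1, 3 or 4, the 13 calls became 8, 7 or 7.

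Markers of other cell types varied between groups or between mice. Of 8 leptomeningeal fibroblast genes, 2 were lower in light-treated than untreated 5xFAD HPC, Col6a1 by a log2 fold change of -2.39 and Fmod by -2.13 (edgeR, adjusted p = 0.0402 and 0.0482). Neither was called without the light-treated mouse numbered 2 or 4, where 0 of all genes were. The summed FPKM of the list was 34.1 to 67.5 in WT, 54.5 to 130 in 5xFAD and 17.5 to 30.2 in 5xFAD + light mice. The border macrophage list, of which 4 of 10 genes passed the filter, summed to 4.67 to 7.25, 11.1 to 20.8 and 4.40 to 8.58 FPKM in the same order, and 0 of the 4 were called between the light groups. The choroid plexus list summed to 36.3 to 2796 FPKM in WT, 205 to 3189 in 5xFAD and 63.0 to 244 in 5xFAD + light mice. These groups overlapped, and 0 of the 6 genes were called between the light groups. Spp1, Axl and Gpnmb are also used by such border cells, and the part of these cells in the difference of the members was not tested. The first 5xFAD mouse, with the highest Cst7, Spp1 and Gpnmb, also had a summed monocyte list of 109 FPKM, where the other 11 HPC libraries had at most 24.8. That sum was mostly S100a4, which reached 103 FPKM in 5xFAD HPC, where Fn1 and Ly6c2 reached 3.12 and 1.8. Of the 6 list genes 3 passed the filter, and the sum is not read as monocyte content. Without the first 5xFAD mouse the log2 fold changes for light were 0.16 for Cst7 and 0.25 for Spp1, and again 0 members were called.

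Within the transgenic mice, the members varied together from mouse to mouse. Over the 8 transgenic HPC libraries, with each group's mean removed, the 45 pairs of members had a median Pearson r of 0.63 (from -0.04 to 0.96) and 44 were positive, while the members' median r with other genes tested was -0.02. The pair Cst7 and Clec7a had the highest r, 0.96. Spp1, Gpnmb and Csf1 had the lowest median r to the other members, at 0.50, 0.52 and 0.52, and Spp1 and Csf1 had an r of -0.04 to each other. These values describe 8 libraries that also share variation in microglial content and dissection. Over the 12 HPC libraries, the 5 other genes most like the mean of the members, on the same group-centred scale, were Hpgds (r = 0.99), a prostaglandin D synthase, Arpc1b (0.98), an actin regulator, Ncf1 (0.97), a subunit of the phagocyte NADPH oxidase, Ifnar2 (0.97), an interferon receptor chain, and Fcgr2b (0.96), an inhibitory Fc receptor.

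The meninges gave a different base level. In WT meninges Spp1 was at 961, 476, 376 and 190 FPKM, where WT HPC had 4.84 to 11.5. Clec7a was at 3.03, 5.02, 4.63 and 5.48 FPKM, where WT HPC had at most 0.13. Both genes were thus expressed in the meninges of mice without the transgenes. Low levels in these WT HPC libraries had entered the choice of the genes, so their differences between WT meninges and WT HPC are given as a description; in the fit of both tissues 73.0% of all genes were called and 39.9% were called higher in meninges. The log2 fold changes, meninges over HPC, were 5.93 for Spp1, 5.06 for Clec7a, 4.03 for Itgax, 2.27 for St14, 2.08 for Samsn1, 2.04 for Cst7 and 0.65 for Axl. For Csf1 and Gpnmb they were 0.37 and 0.33, and for Lag3, at 2.14 to 3.13 FPKM in meninges, -1.13. Monocyte, neutrophil, border macrophage and osteoclast or osteoblast markers were also higher in meninges, with medians of 6.95, 9.47, 4.85 and 5.99, and their part was not tested. Of 13 homeostatic microglial genes, 4 were called higher and 8 lower in meninges, with a median of -0.96 and P2ry12 at -3.55.

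Between 5xFAD and WT meninges, 0 of the 9 members tested were called, and 1 of them had an unadjusted p below 0.05 in the edgeR test, where 4.01% of 14318 genes did and 0 were called. Cst7 was at 2.76, 4.22 and 4.38 FPKM in 5xFAD meninges beside 2.08, 3.37, 0.87 and 3.46 in WT, a log2 fold change of 0.62 (-0.58 to 1.83). Clec7a was at 2.42, 3.34 and 8.12 FPKM beside 3.03 to 5.48 in WT, a difference of 0.41 (-0.46 to 1.28). Spp1, at 348, 1486 and 1301 FPKM, differed by 1.09 (0.02 to 2.16, edgeR adjusted p = 0.987), with the groups overlapping. St14 was at 0.38, 0.39 and 0.62 FPKM beside 0.66 to 1.10 in WT, the lone member without overlap, where 2.65% of all genes were lower without overlap, on 10 to 20 counts per 5xFAD library, and was not called (-1.001, -2.29 to 0.29). Itgax did not pass the filter and was at 0.21 to 0.87 FPKM in 5xFAD and 0.19 to 0.87 in WT meninges.

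Light-treated and untreated 5xFAD meninges also differed in 0 of the 9 by the adjusted test, where 0.014% of all genes were called, 12.7% had an unadjusted p below 0.05 and 10.1% were higher without overlap. Clec7a was at 12.2, 14.3 and 9.43 FPKM under light, above each of the 3 untreated mice. The log2 fold change was 1.08 (0.16 to 2.01), with an adjusted p of 0.341 in edgeR. Against WT meninges, Clec7a differed by 1.49 (0.63 to 2.35), with an adjusted p of 0.142 in edgeR and 0.0276 in DESeq2, and was 1 of 2 members higher without overlap, where 6.99% of all genes were. The second was Samsn1, at 4.95, 5.65 and 5.96 FPKM under light and 3.56 to 4.55 in WT. Neither passed the edgeR test. The light-treated mouse with 12.2 FPKM of Clec7a had a summed neutrophil list of 7540 FPKM, where the other 9 meninges had at most 3100. The other light-treated mice had sums of 656 and 719. The homeostatic list had 0 of 12 called and a median of 0.50. Its sums were 238 to 329 FPKM in untreated and 300 to 421 in light-treated 5xFAD meninges. The part of neutrophil, microglia or macrophage content in Clec7a was not tested.

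Spp1 had the largest estimate in the other direction, at 460, 509 and 484 FPKM under light and a log2 fold change of -1.12 (-2.28 to 0.05, edgeR adjusted p = 0.408). The 3 light-treated mice lay within the WT range, and the untreated mice on both sides of them. The remaining members had log2 fold changes from 0.07 for Axl to 0.68 for Gpnmb, with intervals that include 0; Csf1 was at 7.48 to 11.7 FPKM under light and 6.59 to 9.15 without, and Lag3 at 0.87 to 4.51 and 0.80 to 2.38. The other plaque-associated genes had 0 of 38 called and a median of 0.15, and the partners 0 of 34 and 0.11.

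**Figure D4:**
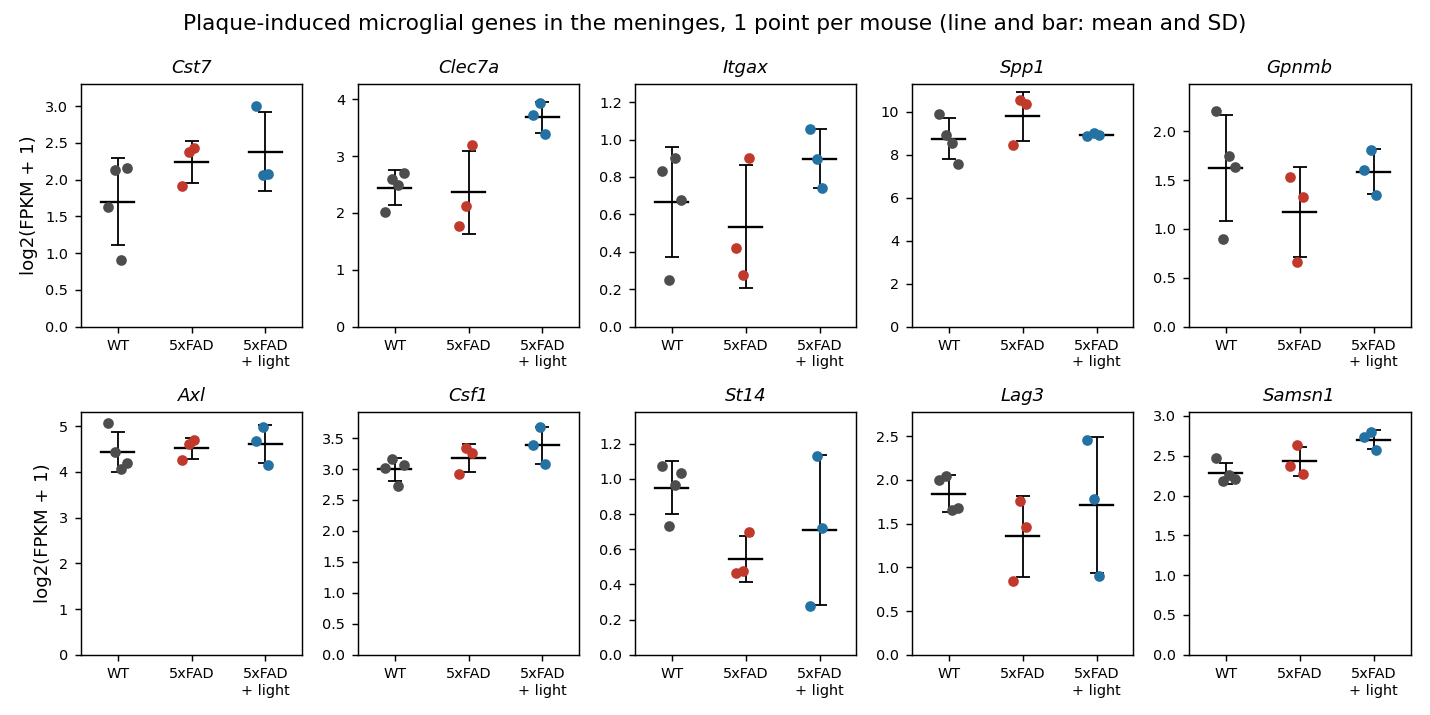
Level of each of the 10 genes in meninges, as log2(FPKM + 1), for 4 WT, 3 5xFAD and 3 5xFAD + light mice; points are mice, lines and bars the mean and SD, and each panel has its own scale from 0. The 3 light-treated mice are the highest for Clec7a, and the groups overlap for Spp1 and Cst7.

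Whether the difference under light was unequal in HPC and meninges was tested in the fit of both tissues, with all samples taken as independent. Of the 10 members 0 were called, where 1.05% of all genes were. Clec7a had the smallest adjusted p, 0.175 in edgeR, with a difference of -1.23 (-2.24 to -0.21), HPC minus meninges. The estimate was below 0 for 9 of 10 members, beside 53.7% of all genes, and Spp1 was the exception at 0.74 (-1.04 to 2.52). The untreated 5xFAD HPC mice had entered the choice of the genes, which favours lower estimates for the members than for other genes. The members also varied together from mouse to mouse, so the count is a description and not a test. Without the third of the 3 untreated 5xFAD meninges samples, labelled replicate 4, 1 member was called, Clec7a at -2.02.

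**Figure D5:**
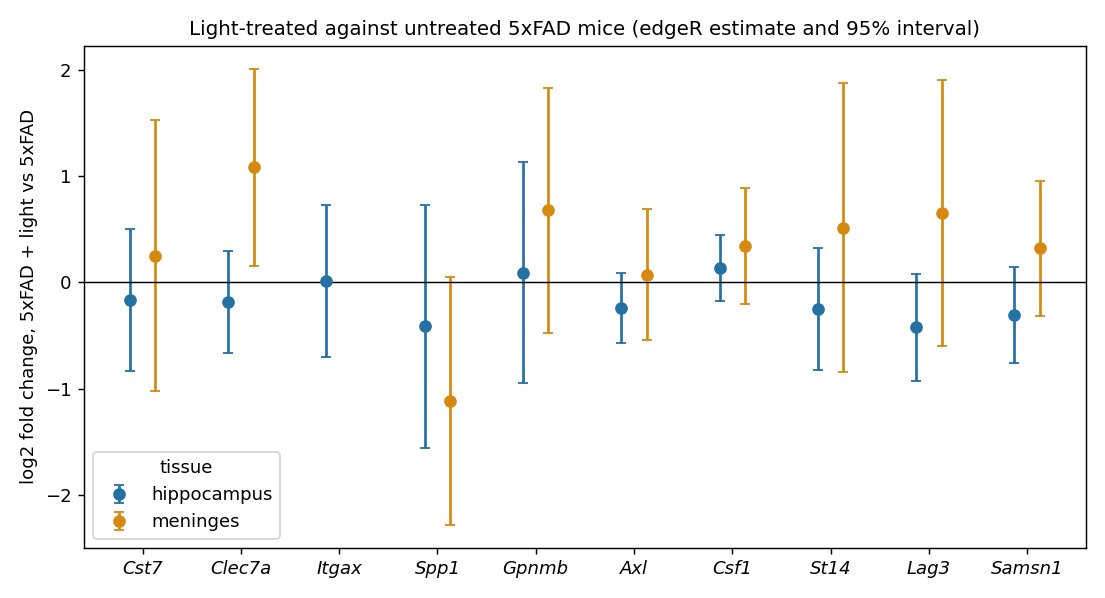
Log2 fold change of 5xFAD + light over 5xFAD for each gene, with its 95% interval, in HPC (blue, 4 against 4 mice) and meninges (orange, 3 against 3); Itgax was not tested in meninges. All intervals in HPC include 0, and in meninges all but that of Clec7a.

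The mLECs had been sorted as CD31-positive, PDPN-positive and CD45-negative cells, so leukocytes were gated out. Ptprc, which encodes CD45, and Tyrobp were at 0 in each of the 10 libraries, while Pecam1 (CD31) was at 189 to 398 FPKM and the lymphatic receptor gene Flt4 at 3.83 to 81.6. Pdpn was at 0 in 4 and the lymphatic factor Prox1 at 0 in 3 of the 10, with summed lymphatic markers from 227 to 9930 FPKM. Cst7, Itgax, Spp1, Gpnmb and St14 were listed at 0 in all 10 libraries. Thus 5 of the 10 members, among them the most abundant one of 5xFAD HPC, were not detected in these libraries. Total counts were like those of HPC, but only 5998 to 9020 genes were detected per library.

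The other 5 members were found in some mLEC libraries and listed at 0 or near it in others. Clec7a was at 5.97, 3.72 and 1.42 FPKM in the 3 5xFAD libraries (271, 122 and 61 counts), at 0, 0, 0.03 and 0 in WT, and at 1.27, 0 and 0 under light. Axl was at 0, 4.03 and 7.06 FPKM in 5xFAD, at 0 in 3 of 4 WT libraries with 0.08 in the fourth, and at 0, 0 and 5.92 under light. Reads of these receptors thus came from 3 of 3 and 2 of 3 5xFAD libraries, in which Tyrobp and Ptprc were at 0. Of the 10 border macrophage genes, 6 were at 0 in all 5xFAD libraries, while Stab1 was at 57.6 to 86.05 FPKM, and Mrc1 and Siglec1 reached 15.0 and 3.76. Of the 10 osteoclast or osteoblast genes, 8 were at 0 in all 5xFAD libraries, while Acp5 and Ctsk reached 31.7 and 12.5. The MHC class II genes Cd74 and H2-Ab1 were at 4.52 to 503.5 and 105 to 254 FPKM, and H2-Aa and H2-Eb1 at 0 to 40.6 and 0 to 55.7. Cd68, of the plaque-associated list, reached 3.55. The cells that gave the reads of Clec7a and Axl were not tested. Csf1 was at 98.0, 0.07, 7.59 and 38.8 FPKM in WT, at 6.92, 7.24 and 15.3 in 5xFAD, and at 0.50, 0.01 and 0.02 under light. By group mean Csf1 was the highest member in WT and untreated 5xFAD mLECs and the fifth under light, and each light-treated library was below each untreated 5xFAD library, as were 6.58% of all genes. Samsn1 was at 0, 0.03, 21.1 and 0 FPKM in WT, 6.72, 0 and 18.5 in 5xFAD, and 0.41, 0.02 and 3.62 under light, and Lag3 was above 1 FPKM in 1 library, a 5xFAD one at 12.4.

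Of the 4 members that passed the filter in mLECs, 0 were called in edgeR in any of the 3 comparisons, where 0.0122% of 8188 genes were called between light-treated 5xFAD and WT mLECs and 0 in the others. Csf1 had a log2 fold change of -5.40 (-10.64 to -0.16) between light-treated and untreated 5xFAD mLECs and of -7.96 (-13.80 to -2.13) between light-treated 5xFAD and WT mLECs, with edgeR adjusted p of 1.00 and 0.740. DESeq2 called the latter (adjusted p = 1.0e-04). Clec7a between 5xFAD and WT had an edgeR adjusted p of 1.00, and its groups did not overlap, where 5.01% of all genes were higher without overlap. Since WT libraries are at 0 or 1 count, no fold is given for it. Clec7a and Axl reached 1 FPKM in 0 WT mLEC libraries and so passed the filter through the 5xFAD groups alone. That favours higher values in 5xFAD than in WT, so the lack of overlap of Clec7a is a description.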

How the data were processed

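Libraries from hippocampus, meninges and sorted mLECs had been made by a Smart-seq2 protocol, 1 mouse each. The authors deposited estimated counts per gene (expected counts, rounded to whole numbers here) and FPKM, computed with RSEM after fastp per the study's methods; the submitters' processing notes name Trimmomatic, HISAT2, StringTie, DESeq2 and mm10. Groups follow the labels. For each tissue, edgeR 4.0.16 (R 4.3.3) was run on its 3 groups jointly, with TMM scaling, genes that reached 1 FPKM in 3 or more samples, quasi-likelihood test, Benjamini-Hochberg adjustment over all genes tested, and a call at adjusted p below 0.05. The authors' 2-fold rule, DESeq2 1.42.0, limma 3.58.1 on log2(FPKM + 1) and log2(FPKM + 0.1), other scalings and filters, and leaving out each sample were alternatives. Tissues were compared in 1 fit of 22 samples taken as independent; shared mice would change its errors and p-values. Intervals cover 95% and p-values the spread between mice. The fits were tested on simulated data. Whole-number estimated counts made up 81.6% to 89.6% of values. Replicates differed beyond counting noise. The members and gene lists were chosen with earlier results of these data known. The text names the 10 members, list genes with the largest called changes or partners of a member, and the 5 genes most correlated with the members; some items that meet this rule are not reported here.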

Additional observations from a re-analysis of the deposited data

Results flagged for a closer look

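Among 44 sets of values (a member in a group of 4 samples), 4 had a sample far from the others by Dixon's criterion. Chance meets it in about 1 in 20 sets of normally distributed values, which values near 0 are not, so the 4 are not set against that rate. In 5xFAD HPC, Cst7 was at 271 FPKM in 1 mouse and at 125 to 150 in the other 3. In WT mLECs, Clec7a was at 0.03 FPKM in 1 library and 0 in the other 3, Axl at 0.08 in 1 and 0 in the other 3, and Samsn1 at 21.1 in 1 and at most 0.03 in the other 3. The values of Clec7a and Axl rest on 1 and 8 counts, and that of Samsn1 on 645. With the other 3 libraries at 0, any value above 0 meets the criterion for Clec7a and Axl.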

How the results depend on the processing

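Counts of members called kept to 0 in HPC and meninges between light-treated and untreated 5xFAD mice under each alternative run. DESeq2 called 1 member in meninges (Clec7a, log2 fold change 1.46) and 1 in mLECs (Csf1, -8.03) between light-treated 5xFAD and WT mice, and between light-treated and untreated 5xFAD HPC it called 1 other plaque-associated gene and 1 partner, while limma with either pseudocount called 1 other plaque-associated gene. With 1 sample left out, calls ranged from 0 to 1 member for the light difference between tissues, 7 to 12 partners for light-treated 5xFAD against WT HPC, and 0 to 1 other plaque-associated genes and 0 to 2 partners for light in HPC. Within a tissue, few samples with the same replicate number deviated together (1 of 12 pairs in HPC, 2 of 9 in meninges and 0 of 8 in mLECs with a correlation above 0.1). This check cannot show whether they shared a preparation or, across tissues, a mouse. The fit with the replicate block called 0 members for light in HPC and 30 other plaque-associated genes, against 32, for 5xFAD and WT HPC. In that block, log2 fold changes turned sign for Axl (-0.038) and Csf1 (-0.018) between 5xFAD and WT meninges, Gpnmb (0.11) between light-treated 5xFAD and WT meninges and Samsn1 (0.89) between light-treated 5xFAD and WT mLECs. With limma on log2(FPKM + 1) and log2(FPKM + 0.1), Clec7a between 5xFAD and WT meninges was -0.087 and -0.13 and Spp1 between light-treated 5xFAD and WT meninges 0.19 and 0.19; with the latter, Csf1 was 0.14 between 5xFAD and WT mLECs and Samsn1 0.58 between light-treated 5xFAD and WT mLECs. Lag3 between light-treated 5xFAD and WT meninges was 0.016 without a filter. The causes were not tested.

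Leaving out 1 sample turned 32 values of 20 uncalled results. For light in HPC, Cst7 ranged from -0.46 to 0.16, Itgax from -0.17 to 0.15, Spp1 from -1.16 to 0.25 and Gpnmb from -0.27 to 0.65. For light in meninges, Cst7 ranged from -0.30 to 0.49, Axl from -0.065 to 0.23 and Lag3 from -0.089 to 1.04. Between 5xFAD and WT meninges, Clec7a ranged from -0.35 to 0.76, Axl from -0.067 to 0.29 and Csf1 from -0.017 to 0.23. Between light-treated 5xFAD and WT meninges, Spp1 ranged from -0.33 to 0.48, Gpnmb from -0.43 to 0.21, Axl from -0.00084 to 0.36 and Lag3 from -0.75 to 0.38. In mLECs, Samsn1 ranged from -0.76 to 9.22 between 5xFAD and WT, and Clec7a from -1.72 to 7.20 and Samsn1 from -4.77 to 6.52 between light-treated 5xFAD and WT; where the WT libraries hold 0 or 1 count these are fitted values that depend on the prior count, not folds. For the light difference between tissues, Cst7 ranged from -0.67 to 0.14 and Spp1 from -0.0074 to 1.40, and between WT meninges and WT HPC, Gpnmb from -0.066 to 0.60.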
